A study of Mus musculus with 10 samples.

Results

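The genes described here are 10 Fbxw genes of the mouse that oocytes express at high levels: Fbxw13, Fbxw14, Fbxw15, Fbxw16, Fbxw18, Fbxw19, Fbxw20, Fbxw22, Fbxw24 and Fbxw28. They were taken by Gene Symbol from a deposited table of 18493 genes, which holds 24 Fbxw genes in all, and they were listed with their abundance known, Fbxw28 and Fbxw14 being among the 10 most abundant genes. Chosen by symbol with their measured levels in view, they have levels given as a description, with no test. RNA was sequenced from 10 oocyte libraries by SMART-seq2, in which an oligo dT primer starts reverse transcription and the full-length cDNA is then amplified. Oocytes, from the ovary, came from a spermidine group whose treatment is labelled as a rescue (n = 4), an aged group (n = 3) and a young group that served as the control (n = 3). By the series' design text, the study asked how spermidine, a polyamine, improves the quality of aged oocytes. The sources used here give no strain, age, dose, or number of oocytes or animals behind a library. The p-values thus rest on the spread among these libraries, part of which may be technical.

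An F-box protein is the part of an SCF ubiquitin ligase that holds the substrate. Its F-box binds Skp1, which joins it to the scaffold Cul1 and the RING protein Rbx1, and in the Fbxw class WD40 repeats hold the substrate. Attachment of NEDD8 to Cul1 (neddylation) activates the ligase. Oocytes rely on timed protein breakdown in meiosis. The genes on mouse chromosome 9 form a rodent array of close copies, and mouse Fbxw24 has been linked to meiotic prophase in female germ cells.

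In the RefSeq annotation of GRCm38.p6, the 10 genes lie in an unbroken run of 15 Fbxw genes on chromosome 9, with 3 small nuclear RNA genes as the only other genes inside it. The order is Fbxw21, Fbxw13, Fbxw20, Fbxw14, Fbxw28, Fbxw22, Fbxw16, Fbxw19, Fbxw23, Fbxw15, Fbxw24, Fbxw25, Fbxw18, Fbxw26 and Fbxw27. The files use the build mm9, so this annotation gave names, neighbours and promoter windows but no counts. Fbxw21, Fbxw23, Fbxw25, Fbxw26 and Fbxw27 belong to the run but not to the 10.

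RefSeq promoter windows of GRCm38.p6, 250 bases before to 50 bases after the start, were available for 8 of the 10 genes (not Fbxw13 or Fbxw22). Since the 10 genes varied together across libraries, 4 windows are shown: those of the 3 most abundant genes, and that of Fbxw20, which with Fbxw16 made the least alike pair. All lie on the minus strand and are written 5′ to 3′, with capitals marking E-boxes, CANNTG, the motif of basic helix-loop-helix factors such as the oocyte factor FIGLA.
Fbxw28, chr9:109339610-109339909: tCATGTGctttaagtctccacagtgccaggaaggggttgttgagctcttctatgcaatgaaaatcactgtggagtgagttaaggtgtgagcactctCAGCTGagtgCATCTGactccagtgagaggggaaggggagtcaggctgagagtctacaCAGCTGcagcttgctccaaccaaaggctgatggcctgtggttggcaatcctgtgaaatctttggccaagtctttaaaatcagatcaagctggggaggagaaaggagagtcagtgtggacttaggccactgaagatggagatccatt
Fbxw14, chr9:109287627-109287926: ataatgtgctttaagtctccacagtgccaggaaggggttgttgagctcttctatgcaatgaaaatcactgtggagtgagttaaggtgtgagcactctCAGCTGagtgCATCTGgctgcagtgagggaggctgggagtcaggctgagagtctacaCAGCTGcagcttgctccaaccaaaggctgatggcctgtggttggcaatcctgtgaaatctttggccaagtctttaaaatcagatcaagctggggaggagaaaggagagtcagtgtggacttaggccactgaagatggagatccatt
Fbxw24, chr9:109626010-109626309: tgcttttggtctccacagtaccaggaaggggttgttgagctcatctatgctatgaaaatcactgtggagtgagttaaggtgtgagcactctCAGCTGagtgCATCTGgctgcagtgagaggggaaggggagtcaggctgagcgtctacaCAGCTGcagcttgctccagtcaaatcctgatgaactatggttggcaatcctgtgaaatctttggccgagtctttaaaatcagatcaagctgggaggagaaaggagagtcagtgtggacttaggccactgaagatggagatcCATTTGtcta
Fbxw20, chr9:109234705-109235004: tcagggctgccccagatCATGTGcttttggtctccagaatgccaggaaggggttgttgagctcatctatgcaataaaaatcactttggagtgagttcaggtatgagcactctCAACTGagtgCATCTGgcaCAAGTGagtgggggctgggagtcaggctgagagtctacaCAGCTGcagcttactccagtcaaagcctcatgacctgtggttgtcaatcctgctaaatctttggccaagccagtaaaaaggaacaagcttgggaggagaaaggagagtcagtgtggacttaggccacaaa

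The 8 windows were 84.9% (Fbxw16 and Fbxw20) to 97.7% (Fbxw14 and Fbxw28) identical in pairs, with a median of 90.9% over 28 pairs. An E-box, whose letters CANNTG read the same on both strands, was found in 8 of 8 windows, beside 72.3% of 32817 RefSeq windows of the same length. The particular box CAGCTG stood at least 2 times, 56 to 58 bases apart, in 7 of the 8; 1.90% of all windows hold it at least 2 times. Fbxw20 is the exception. This count was chosen after the windows were seen. The 12-base run aaatctttggcc was shared by all 8 windows, starting 71 bases (Fbxw19) to 26 bases (Fbxw20) before the start. It was found in 11 of the 32817 windows, and those belong to 10 genes: the 8 members, Fbxw21 and Fbxw26. Another 12-base run, gacttaggccac, was also in all 8 member windows, at -10 (Fbxw19) to 35 bases (Fbxw20) from the start. That run was not counted over all windows. TAATTG, the motif given for the oocyte homeobox factor NOBOX, was in 0 of 8 member windows and 8.0% of all windows. TATAAA was in 0 of 8 and 13.6%, and each of these motifs was searched on both strands. These matches describe letters in a window, not sites.

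The same likeness runs through the transcripts and bears on every count below. In the longest protein-coding GENCODE M21 transcript of each gene, of 1483 to 1835 bases, pairs were 79.4% (Fbxw24 and Fbxw28) to 99.2% (Fbxw14 and Fbxw28) identical. Fbxw22 was 93.1% identical to Fbxw14 and 93.3% to Fbxw28. Of all 50-base windows along a transcript, 34.0% in Fbxw28 and 32.4% in Fbxw14 were found in no other gene. With 150-base windows these shares were 64.0% in Fbxw28 and 69.8% in Fbxw14. The other 8 genes had 84.6% (Fbxw16) to 94.2% (Fbxw24) such windows at 50 bases and 100% at 150. The deposited expected counts of all 10 genes were not whole numbers in any of the 10 libraries, as happens when reads are divided among genes. The read length is not given in the sources used here. Values of Fbxw14 and Fbxw28 taken separately are thus uncertain, and their sum is given beside them.

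**Figure D1:**
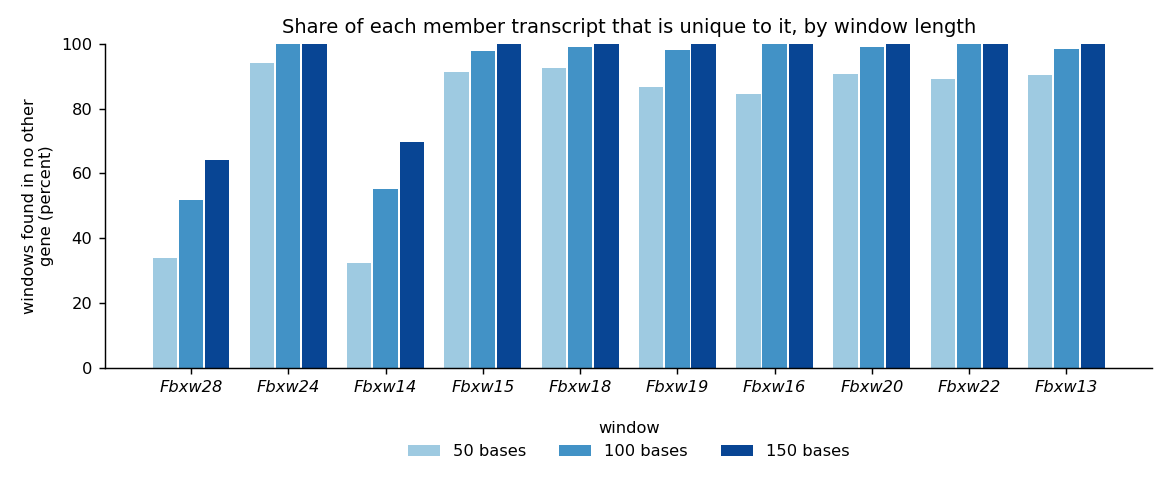
Percent of windows of 50, 100 and 150 bases along each member's transcript (bars, vertical axis from 0) that occur in no other gene, with genes ordered by level per length. Fbxw28 and Fbxw14 stand at 34.0% and 32.4% for 50 bases, and the other 8 genes at 84.6% or more.

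Libraries held 24222201 to 28730822 counts and 15303 to 15689 genes with a count. The oocyte markers, such as the zona pellucida genes and Gdf9, summed to 21246 to 42420 CPM in spermidine, 32131 to 43224 in aged and 30744 to 34769 in young libraries, where CPM is a gene's count scaled to the library's TMM-adjusted total. Granulosa and cumulus markers, all 11 of them in the table, summed to 21.3 to 27.01 CPM in spermidine, 19.999 to 23.6 in aged and 19.4 to 23.1 in young libraries. The sums of 7 theca and stroma markers were 1.07 to 1.38 CPM in spermidine, 0.62 to 1.17 in aged and 1.08 to 1.84 in young libraries. Blood and immune markers, 10 in the table, summed to 0.89 to 1.304 CPM in spermidine, 0.73 to 11.8 in aged and 1.33 to 26.8 in young libraries. No marker was at 0 in all libraries, and the part of other cells in the results was not tested.

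Together the 10 genes took 4.03% (aged 2) to 5.47% (spermidine 2) of all counts of a library. Fbxw28 had the highest level, with a mean of 10528 CPM over the 10 libraries and rank 8 of the 18493 genes. Fbxw14 followed with 8932 CPM (rank 10), Fbxw24 with 7605 (rank 16), Fbxw18 with 4536 (rank 33), Fbxw15 with 4480 (rank 34), Fbxw19 with 3735 (rank 41) and Fbxw16 with 3342 (rank 48). Fbxw22 had 1983 CPM (rank 83), Fbxw20 1690 (rank 97) and Fbxw13 744 (rank 168). The 5 other genes of the run were expressed as well, with means of 3231 CPM for Fbxw21, 2254 for Fbxw26, 1428 for Fbxw27, 787 for Fbxw25 and 191 for Fbxw23. Of the 9 Fbxw genes elsewhere in the genome, Fbxw4 had 205 CPM and Fbxw17 16.3 CPM, and the rest had 0.94 (Fbxw10) to 7.09 CPM (Fbxw11).

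Levels between genes were compared per length of the GRCm38 transcript. Fbxw28 stood first with 6274 ± 717 CPM per kb (SD over 10 libraries of all groups), above the next gene in 10 of 10 libraries. Fbxw24 (5111 ± 835) and Fbxw14 (5001 ± 580) followed, and their order differed between groups: Fbxw24 was the higher in 3 of 4 spermidine, 0 of 3 aged and 3 of 3 young libraries, a difference that was not tested. Likewise Fbxw15 (2997 ± 528) exceeded Fbxw18 (2986 ± 524) in 5 of 10 libraries. Fbxw19 (2519 ± 518) and Fbxw16 (2233 ± 436) came next, each above its neighbour in 10 of 10 libraries. Fbxw20 (1119 ± 219) and Fbxw22 (1081 ± 187) again changed places, with Fbxw20 higher in 6 of 10. Fbxw13, at 501 ± 146 CPM per kb, was the lowest of the 10 genes in every library.

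**Figure D2:**
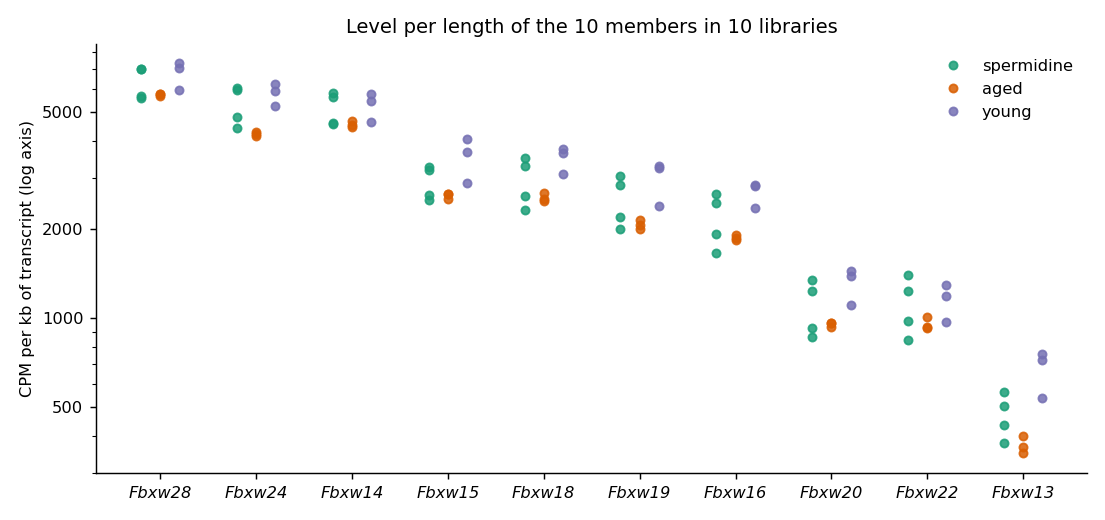
Level per length of the 10 genes (vertical axis, CPM per kb of transcript, log scale), with 1 point per library and colours for spermidine, aged and young. Fbxw28 averaged 6274 and Fbxw13 501 CPM per kb, and the neighbours Fbxw24 and Fbxw14, Fbxw15 and Fbxw18, and Fbxw20 and Fbxw22 overlap.

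Aged against young oocytes was the comparison with the largest differences. The summed level of the 10 genes was 41466, 41948 and 40823 CPM in aged libraries, against 57430, 46324 and 56519 CPM in young libraries. On this scale all 3 aged libraries lay close together and below the lowest young library, young 2. As a plain share of counts, without TMM, the groups overlapped, with 4.52% in aged 1 and 4.49% in young 2. The difference of the summed level was -0.36 on the log2 scale, a value with no test, beside a median of 0.10 over all 12315 genes tested. Each of the 10 genes had a negative log2 fold change, from -0.86 to -0.22, with a median of -0.45. In these bulk libraries fewer oocytes expressing a gene and less of its RNA per oocyte cannot be told apart. CPM is relative to a library's total, so RNA amounts per oocyte were not measured.

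Fbxw13 was the 1 member that passed the test. It had 591, 543 and 517 CPM in aged libraries, against 1071, 795 and 1125 CPM in young libraries, without overlap. Its mean was 550 ± 37.3 CPM in aged and 997 ± 177 CPM in young oocytes (SD, n = 3 each). It fell by 0.86 on the log2 scale (SE 0.18, edgeR quasi-likelihood adjusted p = 0.00812). Over all tested genes 8.06% were called lower, so 1 of 10 members called is close to the background. The members' values are not independent, as they move together across libraries.

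The other 9 genes did not pass, 6 of them with an unadjusted p under 0.05. Counts at an unadjusted p, here and below, were not set against the share of all tested genes. Such counts are thus a description only. Fbxw24 had 6352, 6295 and 6174 CPM in aged libraries, against 9235, 7772 and 8762 CPM in young libraries. Every aged value was below every young one. The log2 difference was -0.45 (SE 0.15, edgeR adjusted p = 0.0546). Fbxw16 had 2767, 2878 and 2800 CPM in aged libraries, against 4237, 3530 and 4202 CPM in young libraries, again without overlap, with a log2 difference of -0.50 (SE 0.17, edgeR adjusted p = 0.0628). For Fbxw19 it was -0.52, for Fbxw20 -0.46, for Fbxw18 -0.44 and for Fbxw15 -0.44, with edgeR adjusted p-values from 0.0651 to 0.0944. Groups were apart for these genes too.

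The 3 genes most alike in sequence had the smallest differences. They also have the longest transcripts of the 10, at 1678 bases (Fbxw28), 1786 (Fbxw14) and 1835 (Fbxw22). The part of either trait was not tested. Fbxw28 had 9631, 9672 and 9507 CPM in aged libraries, against 12261, 9974 and 11814 CPM in young libraries, and Fbxw14 had 8299, 8066 and 7960 CPM in aged libraries, against 10304, 8241 and 9704 CPM in young libraries. For Fbxw14 the groups overlap, since aged 1 lay above young 2. Their log2 differences were -0.24 (SE 0.14) for Fbxw28 and -0.22 (SE 0.15) for Fbxw14, with edgeR adjusted p-values of 0.254 and 0.310. Their sum, which does not depend on how reads were divided between them, was 17931, 17738 and 17467 CPM in aged libraries, against 22565, 18216 and 21519 CPM in young libraries. Fbxw22 averaged 1757 ± 85.8 CPM in aged and 2119 ± 303 CPM in young oocytes (SD, n = 3 each), with overlapping groups and a log2 difference of -0.27 (edgeR adjusted p = 0.316). In all, 8 of the 10 genes had every aged library below every young library, beside 18.8% of all tested genes. As plain shares of counts, 6 of the 10 did, without Fbxw15 and Fbxw28.

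How many members passed depended on the fit. DESeq2 called 6 of the 10 lower, Fbxw13, Fbxw15, Fbxw16, Fbxw18, Fbxw19 and Fbxw24, with 11.8% of all its tested genes called lower. A fit of the aged and young libraries alone called 6 as well, with a background of 8.44%, and the fit without spermidine 1, a library of neither group, called 7, with a background of 9.78%. Without young 2 there were 3 calls (background 6.53%), and without aged 1 and spermidine 1 together also 3 (background 10.4%). In the authors' deposited table, 6 of the 10 had a q-value under 0.05 and were lower in aged oocytes, where 5.94% of its genes with a q-value were. Fbxw13 alone had an adjusted p under 0.05 in each of 20 alternative fits.

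Correction for transcript length and GC content moved these values more than any other setting. The transcripts of the 10 genes, with a median of 1504 bases and 44.1% GC, are shorter and lower in GC than the median tested gene, at 3065 bases and 49.2%. Libraries differed in both trends: across genes, Spearman's rho of a library's deviation with length was 0.48, 0.03 and 0.02 in aged 1, 2 and 3 and -0.26, -0.21 and -0.13 in young 1, 2 and 3. With GC it was -0.17, 0.29 and 0.41 in aged 1, 2 and 3 and -0.15, 0.14 and -0.33 in young 1, 2 and 3. Aged 1 thus differed from the other aged libraries in both. With both trends removed, Fbxw13 was lower by a log2 difference of -0.45 (SE 0.14, edgeR adjusted p = 0.0447). The other 9 then lay between -0.12 and 0.11, with Fbxw14, Fbxw22 and Fbxw28 above 0 and a lowest edgeR adjusted p of 0.536. The part of length and GC in the uncorrected differences was not tested further.

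**Figure D3:**
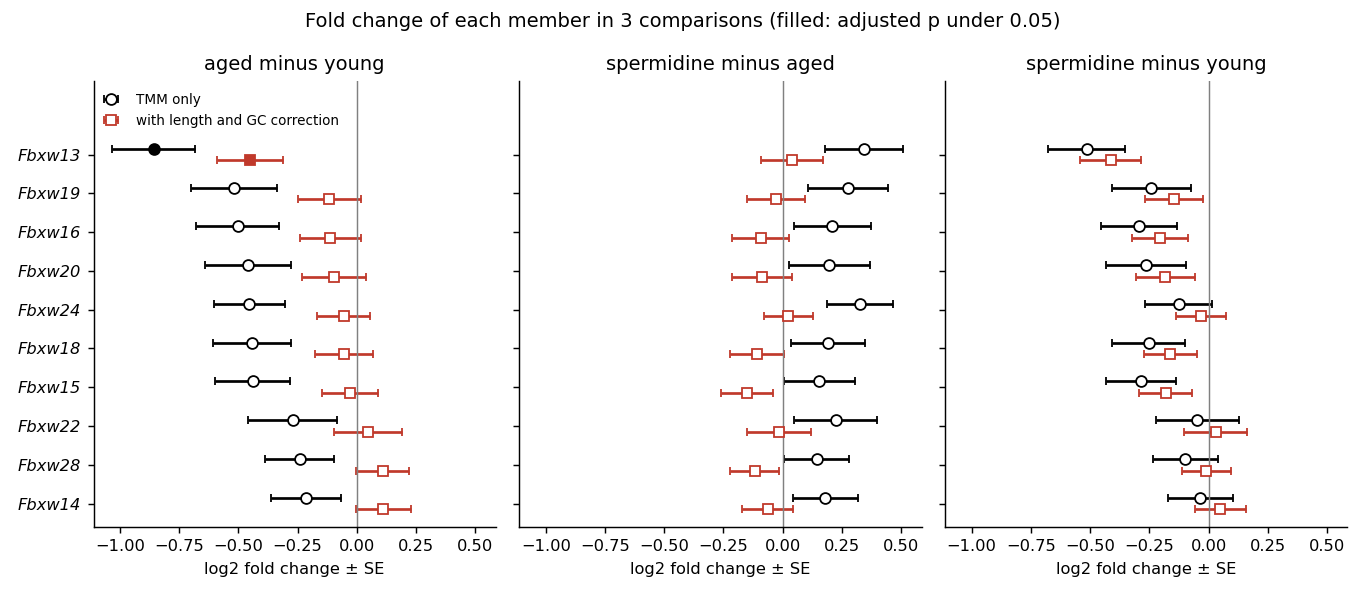
Log2 fold change ± SE of each member (rows) in aged minus young, spermidine minus aged and spermidine minus young, without correction (black) and with length and GC correction (red); filled symbols have an adjusted p under 0.05. In aged minus young the uncorrected values run from -0.86 to -0.22 and the corrected ones from -0.45 to 0.11, and Fbxw13 is filled in both.

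Spermidine against aged oocytes gave no call among the 10 genes. The summed level was 40359, 53266, 55043 and 42574 CPM in spermidine libraries, against 41466, 41948 and 40823 CPM in aged libraries. Spermidine 2 and 3 stood above all aged libraries, while spermidine 4 was slightly above and spermidine 1 below them. The place of spermidine 1 depends on its TMM factor of 1.23, the highest of the 10: its plain share of counts was 4.95%, above 4.52%, 4.03% and 4.12% in the aged libraries. All 10 log2 differences were positive, from 0.14 (Fbxw28) to 0.34 (Fbxw13), with a median of 0.20 beside -0.03 over all genes. By edgeR 0 of 10 passed, with 2.42% of tested genes called higher and 2.44% lower, 1 had an unadjusted p under 0.05, and DESeq2 also called 0. The authors' deposited table had 0 of 10 with a q-value under 0.05.

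Fbxw24 was the gene with that unadjusted p. Its level was 6570, 8807, 8945 and 7138 CPM in spermidine libraries, against 6352, 6295 and 6174 CPM in aged libraries. Every spermidine value lay above every aged one, which held for 1 of 10 members and 11.3% of all tested genes. The log2 difference was 0.33 (SE 0.14, edgeR adjusted p = 0.181). Fbxw13 had 562, 751, 835 and 646 CPM in spermidine libraries, against 591, 543 and 517 CPM in aged libraries. Spermidine 1 fell inside the aged range, and the difference of 0.34 (SE 0.16) had an edgeR adjusted p of 0.224. Length and GC correction turned 8 of the 10 differences negative, the range being -0.15 to 0.04, with 0 called.

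Fbxw28 had 9336, 11779, 11760 and 9546 CPM in spermidine libraries and Fbxw14 8117, 10083, 10365 and 8180 CPM. On this scale both genes had spermidine 2 and 3 at the level of the higher young libraries and spermidine 1 and 4 near the aged ones. Without TMM, Fbxw28 took 1.14% of all counts in spermidine 1, above every aged library (0.93% to 1.05%) and every young library (0.97% to 1.10%), so the place of spermidine 1 depends on the scaling. Across the 10 libraries, the log2 levels of pairs of members correlated with Pearson's r from 0.76 (Fbxw13 and Fbxw22) to 0.996 (Fbxw16 and Fbxw18), a description of values that share libraries and, for some pairs, reads.

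**Figure D4:**
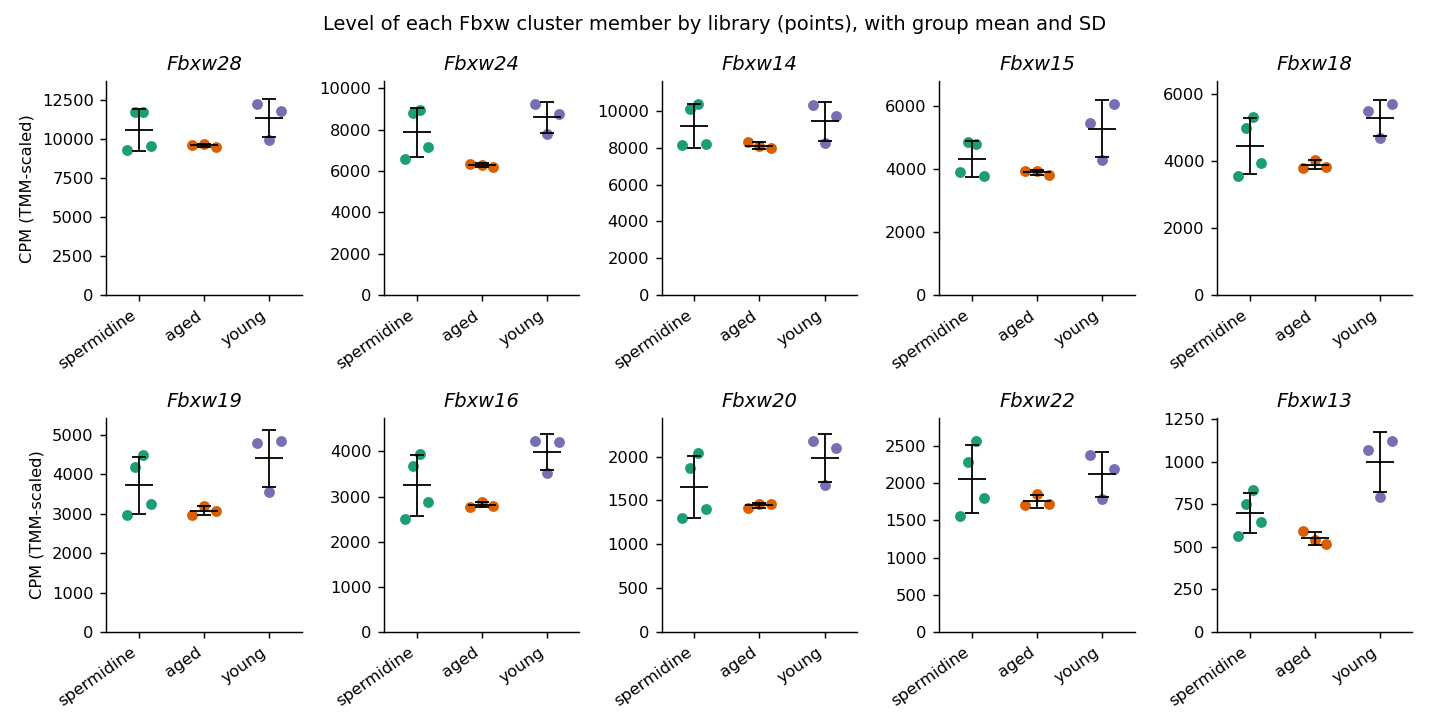
CPM of each gene (panels, vertical axes from 0) in spermidine, aged and young libraries; points are libraries, and bars give the mean and SD. Aged libraries lie close together, as for Fbxw13 at 517 to 591 CPM, while spermidine libraries of the same gene spread from 562 to 835 and young ones from 795 to 1125 CPM.

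Set against young oocytes, the spermidine group had negative log2 differences for all 10 genes, from -0.51 (Fbxw13) to -0.04 (Fbxw14), with a median of -0.25 beside 0.04 over all genes. These fits share the spermidine libraries with the preceding comparison and the young libraries with the first. None passed by edgeR, with 1.92% of tested genes called lower and 3.44% higher. Only Fbxw13 had an unadjusted p under 0.05 (SE 0.16, edgeR adjusted p = 0.0939), and DESeq2 called this 1 gene, with 4.22% of its genes called lower. No member had groups apart, against 8.87% of tested genes with every spermidine library below every young one. The signs depended on scaling: with total counts alone 4 of the 10 were positive, and the median of all genes moved to 0.23.

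The make-up of the summed counts does not depend on library scaling, and the 10 transcripts have GC contents of 43.5% to 45.7%. Their lengths differ: Fbxw22 (1835 bases), Fbxw14 (1786) and Fbxw28 (1678) are longer than the others, of 1483 (Fbxw19) to 1519 bases (Fbxw18). The part of the libraries' length trends in the shares was not tested. Fbxw13 made up 1.39%, 1.41%, 1.52% and 1.52% of the members' counts in spermidine libraries, 1.42%, 1.29% and 1.27% in aged libraries and 1.87%, 1.72% and 1.99% in young libraries. Its share was below every young library in all spermidine and aged libraries. Fbxw14 and Fbxw28 together made up 40.2% to 43.2% in spermidine, 42.3% to 43.2% in aged and 38.1% to 39.3% in young libraries, above every young library in both other groups. Fbxw24 made up 16.3% to 16.8% in spermidine, 15.01% to 15.3% in aged and 15.5% to 16.8% in young libraries. Here the aged group was apart below the other groups. These shares were read after the levels were known and were not tested.

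**Figure D5:**
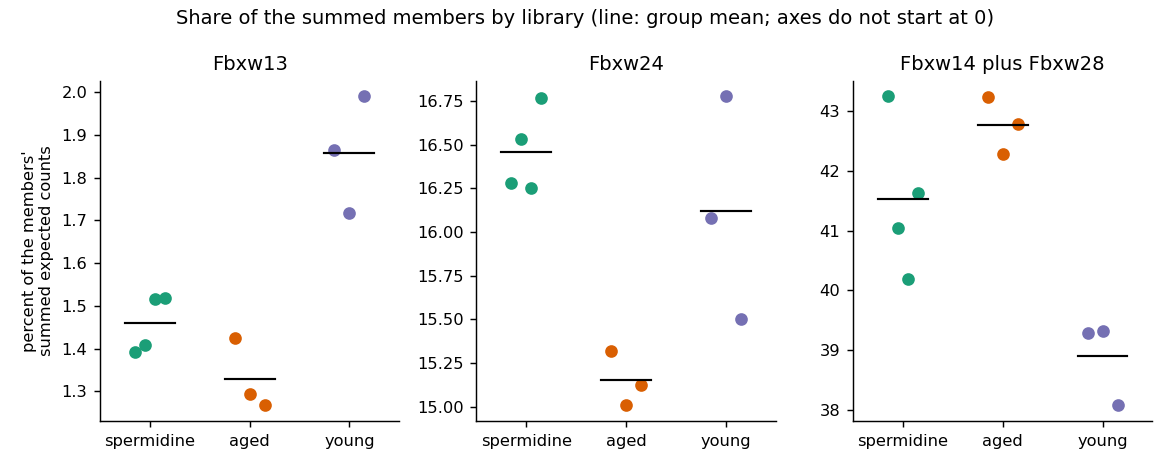
Share of the members' summed expected counts (vertical axes, percent, not starting at 0) taken by Fbxw13, by Fbxw24 and by Fbxw14 plus Fbxw28, with 1 point per library in spermidine, aged and young oocytes and a line at the group mean. Fbxw13 averages 1.46% in spermidine, 1.33% in aged and 1.86% in young libraries, and Fbxw14 plus Fbxw28 41.5% in spermidine, 42.8% in aged and 38.9% in young libraries.

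The 5 other genes of the run had differences of the same signs as the members in both comparisons with aged oocytes. In aged minus young they had log2 differences from -0.47 to -0.27 and in spermidine minus aged from 0.15 to 0.32, with 0 of 5 past the edgeR threshold in each. At an unadjusted p under 0.05 there were 1 of 5 and 0 of 5. Elsewhere in the family, Fbxw11, the beta-TrCP2 gene, was higher in aged oocytes, with 9.42 ± 1.65 CPM in aged and 6.05 ± 0.42 CPM in young oocytes (SD, n = 3 each; log2 difference 0.64, edgeR adjusted p = 0.0296). That call held in 12 of 19 alternative fits and was lost, among others, in the fit of the aged and young libraries alone. Fbxw10, at 0.42 ± 0.16 CPM in aged and 2.03 ± 0.51 CPM in young oocytes, was lower by a log2 difference of -2.26 (edgeR adjusted p = 0.00141). In spermidine minus young its difference was -1.98 (edgeR adjusted p = 0.00213). Counts at so low a level are few and less precise.

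Of 35 genes for the SCF core, neddylation, the COP9 signalosome and partners such as ubiquitin-conjugating enzymes, 32 were tested. In aged minus young, 1 was higher and 4 were lower, beside 9.71% called higher and 8.06% called lower over all genes. The lower ones were Nae1, a subunit of the NEDD8-activating enzyme (271 ± 8.08 CPM in aged and 512 ± 60.0 CPM in young oocytes), Glmn, whose product binds Rbx1 (68.7 ± 3.73 CPM in aged and 129 ± 26.7 CPM in young), Rbx1 itself (181 ± 29.9 CPM in aged and 305 ± 35.2 CPM in young) and Dcun1d5, a helper of cullin neddylation (32.9 ± 7.30 CPM in aged and 63.9 ± 17.6 CPM in young; SD, n = 3 each). Their log2 differences were -0.92, -0.90, -0.76 and -0.96, with edgeR adjusted p-values from 0.00185 to 0.0115. Rbx1 lost its call with length and GC correction, at a log2 difference of -0.45 (edgeR adjusted p = 0.0973), and with total counts alone, which also ended that of Dcun1d5. The higher gene was the scaffold Cul1, at 1119 ± 103 CPM in aged and 813 ± 84.9 CPM in young oocytes. Its log2 difference was 0.46 (edgeR adjusted p = 0.0451), close to the threshold, and this call was not checked in the alternative fits.

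In spermidine minus aged oocytes the same list had 1 gene higher, Dcun1d5 (log2 difference 0.80, edgeR adjusted p = 0.0444). It had 2 lower, Cul1 (-0.53) and the ubiquitin-conjugating enzyme gene Ube2d1 (-0.80). Over all genes, 2.42% were called higher and 2.44% lower. Cul1 averaged 775 ± 86.8 CPM in spermidine (n = 4) and 1119 ± 103 CPM in aged oocytes (SD, n = 3). The call of Dcun1d5 held in 8 and that of Cul1 in 9 of 20 alternative fits, and that of Ube2d1 in 4 of 19. In spermidine minus young, Nae1 was lower by a log2 difference of -0.81 (edgeR adjusted p = 0.00318). Among 11 cell-cycle F-box genes and partners, 3 were higher in aged than in young oocytes, Ccnf (0.80), Fbxw11 and Fbxo34 (0.55). The 1 lower gene was Cks1b (-0.39, but 0.11 with length and GC correction), a cofactor of Skp2. Over all genes, 9.71% were called higher and 8.06% lower in aged minus young. The call held in 16 of 20 alternative fits for Ccnf, 15 of 20 for Fbxo34 and 7 of 20 for Cks1b, which lost it with total counts alone, no filter and no robust estimation. None of the 11 passed edgeR's threshold in the comparisons with spermidine, with an unadjusted p under 0.05 for 4 in spermidine minus aged and for 0 in spermidine minus young.

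By pattern over the 10 libraries, 5434 genes of at least 10 CPM were compared with Fbxw28 and Fbxw14, Fbxw genes left out. Most like Fbxw28 were Mad2l1, a spindle checkpoint gene (Pearson's r = 0.96), Snx6, Mrpl48, Med27 and B020011L13Rik (0.90 each). Most like Fbxw14 were B020011L13Rik (0.93), Mad2l1 (0.91), Rasal2 (0.89), Dhdh (0.88) and Med27 (0.88). Some genes of the run were closer still, such as Fbxw21 for Fbxw28 (0.99) and Fbxw25 for Fbxw14 (0.97). Fbxw28 and Fbxw14 themselves correlated at 0.98. These are descriptions over 10 libraries that share depth and group.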

How the data were processed

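RNA from 10 oocyte libraries (4 spermidine, 3 aged, 3 young, by their titles) was analysed from 1 deposited table. It holds an expected count per gene and library (a read count per the file headers) and the authors' log2 fold changes, p-values and q-values for spermidine over aged and aged over young. The build is mm9, and the tools listed, without their roles, are RSEM 1.3.1, Bowtie2 2.3.4.3 and DESeq2 1.4.5, per the submitters' processing notes. Strand use and read length are not given in the sources used here.

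Expected counts were rounded. In R 4.3.3, edgeR 4.0.16 fitted all libraries (filterByExpr, TMM, robust quasi-likelihood F test), with Benjamini-Hochberg adjustment over 12315 genes and a threshold of 0.05; SE is the log2 fold change divided by the root of F. The procedure was tested on simulated data. DESeq2 1.42.0, other scalings and filters, length and GC correction, a replicate block and each library left out were alternatives. Length, GC and sequence sharing came from GENCODE M21. Totals set the counting precision, which was not limiting at the levels of the 10 genes. It is lower for Fbxw10, at 0.42 CPM in aged oocytes, and Ube2d1, at 1.04 CPM in spermidine oocytes. Other named genes are the Fbxw genes past the threshold or highest and up to 4 of smallest p per list. The 5 genes most like Fbxw28 and like Fbxw14, taken outside the Fbxw family, are named too. Cul1 in aged minus young and the 5 run genes were named after their values were seen. Members and lists were chosen with earlier results of these data known.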

Additional observations from a re-analysis of the deposited data

How the results depend on the processing

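Among the 10 genes, the number called lower in aged minus young was 1 in the edgeR fit, 6 with DESeq2, 6 with only these groups in the fit, 3 without aged 1 and spermidine 1, and 1 to 7 with each library left out (7 without spermidine 1, 3 without young 2). In spermidine minus young it was 0, against 1 with DESeq2 and 0 to 1 with each library left out (1, Fbxw13, without young 2). In spermidine minus aged it was 0 in every alternative run. The cause of these changes was not tested. Fbxw13 kept its call in aged minus young in 20 of 20 alternatives, with log2 differences of -0.99 to -0.45. Under length and GC correction Cks1b reversed to 0.11 in aged minus young. Scaling by total counts alone moved the median of all genes to 0.24 (0.10 with TMM) in aged minus young and to 0.23 (0.04) in spermidine minus young; the summed members were then at -0.22 and 0.01, and at 0.23 in spermidine minus aged.

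Over all genes, 2189, 598 and 660 were called in aged minus young, spermidine minus aged and spermidine minus young. Counts beyond 1.5 times these were 1179 and 273 in the first and the last with the filter of 10 CPM in 3 libraries, 1366 and 1099 in the comparisons with spermidine with DESeq2, 259 in spermidine minus aged with total counts alone, and 124 there with only these groups. Leaving out each library gave 827 to 2362, 99 to 1127 and 283 to 874. Correlations of same-numbered libraries of different groups ran from -0.28 to 0.41, and 3 of 9 libraries correlated best with their own number. These were spermidine 1, aged 1 and young 1, with 0.41 between spermidine 1 and aged 1. Whether the replicate numbers stand for shared handling was not tested. With the replicate block, 1, 0 and 0 members and 2318, 998 and 631 genes were called.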
